A study of Mus musculus with 5 samples.

Results

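The RNA of an embryonic stem (ES) cell line from NZB mice was compared with that of a B6 line and of the line labelled v6.5. The 3 libraries were taken by their labels from the 5 of the series, and the 2 NOD libraries stayed out of the comparison. The NZB line comes from NZB/BlNJ blastocysts, a strain that develops autoimmune hemolytic anemia and lupus-like disease. The B6 line carries the C57BL/6 strain label, and v6.5 is a cross of C57BL/6 with 129S4/SvJae that is widely used for gene targeting. No line carries an engineered allele according to the labels, and all were grown without feeder cells in 2i medium, which holds an inhibitor of the kinase MEK and an inhibitor of the kinase GSK3. Poly(A) RNA was sequenced in single reads of 50 bases. Each strain is represented by 1 line and 1 library, so strain, line, culture and library cannot be told apart.

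ES cells come from the inner cell mass of the blastocyst and keep the ability to form all tissues of the embryo. In 2i medium they stay in the naive state, in which the transcription factors Pou5f1, Sox2 and Nanog and a ring of naive factors hold the cells undifferentiated. MEK activates the kinase ERK, which switches on immediate-early genes such as Fos and Egr1 within minutes of a growth signal, and GSK3 restrains the Wnt pathway. Genes of antigen presentation by major histocompatibility complex (MHC) class II are normally used by B cells, dendritic cells and macrophages.

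The NZB library held 9582669 recovered reads, the B6 library 13431741 and the v6.5 library 8594283. The ribosomal RNA precursor Rn45s took 1.98% of the reads in NZB (95% Wilson interval 1.97% to 1.99%). In B6 that share was 41.4% (41.3% to 41.4%), and v6.5 had 9.75% (9.73% to 9.77%). The values were therefore rescaled for composition and are given as normalised reads. Rmrp, the RNA of a processing ribonuclease, took 0.502% of the NZB reads (0.497% to 0.506%), 0.302% of B6 reads (0.299% to 0.305%) and 0.545% of v6.5 reads (0.540% to 0.550%). The header of the deposited table lists 2 source directories named for B6, whereas no directory carries the name v6.5, and the second control is called the library labelled v6.5. The 8 ES cell markers were present in all 3 libraries and summed to 42556 normalised reads in NZB against 44623 in B6 and 37404 in v6.5.

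No gene passed the threshold of 0.05 for the adjusted p of limma-trend. Of 13679 genes tested, 0 were called higher and 0 lower in NZB (both 0.0%), 2858 genes (20.9%) had an unadjusted p under 0.05, and the smallest adjusted p was 0.115. The quasi-likelihood test of edgeR likewise called 0, its smallest adjusted p being 0.0614, and 2962 genes (21.7%) had an unadjusted p under 0.05. DESeq2, which shares information on the spread differently, called 318 genes higher (2.63%) and 421 lower (3.48%) of the 12087 to which it gave an adjusted p. A permutation of 1 library against 2 cannot give an exact p below 0.333. The results that follow are therefore a description of how far the NZB library stood from both controls, and they give no gene as changed.

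A gene was said to stand apart when its NZB value was at least 2-fold above, or at least 2-fold below, both B6 and v6.5 on the scale of log2(normalised reads + 1). By this measure 1244 genes (9.09%) were higher in NZB than in both controls and 1010 (7.38%) were lower. On the deposited equal totals, without the rescaling, the split was 2325 higher and 451 lower, because the median log2 difference of all genes moved from 0.04 to 0.57, and directions below are relative to the rescaled values. A gene entered with about 10 reads in a single library, so 702 genes entered through NZB alone and 600 through the controls alone, which tied their direction to the filter. Of the genes apart, 377 of the higher and 336 of the lower ones were of this kind. Among the 12377 genes that passed in NZB and in a control, 867 were higher (7.0%) and 674 lower (5.45%). For many lists the counts below are also given for these genes, said to have passed on both sides. Other counts can include genes tied to the filter. Where a count has no share over all genes beside it, the shares in this paragraph are those to compare. At 4-fold the counts were 297 and 267. B6 and v6.5 differed from each other by at least 2-fold in 1687 genes (12.3%). In 2132 of the 2254 genes that stood apart, the distance from NZB to the nearer control exceeded the distance between the controls. The 2-fold rule largely set this count, since a 2-fold gap exceeds any control distance under 2-fold. The count is therefore no check on the gaps. The median absolute log2 difference was 0.56 between NZB and B6, 0.56 between NZB and v6.5, and 0.34 between the controls.

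**Figure D1:**
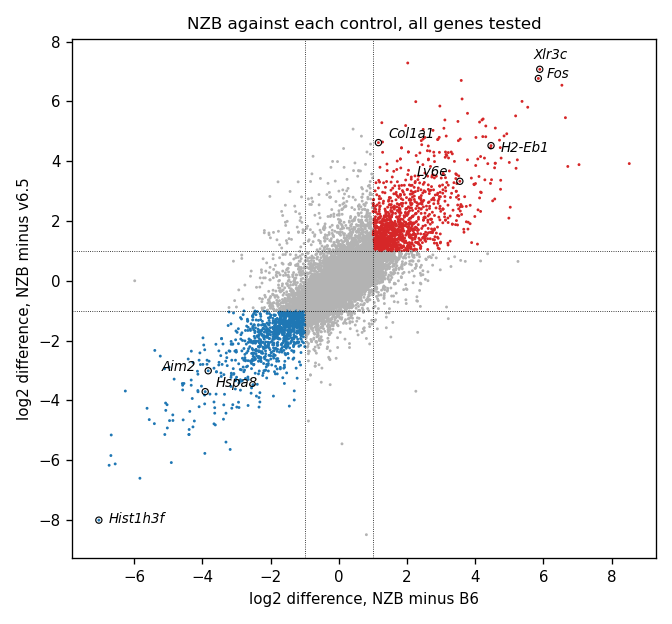
Log2 difference of NZB from B6 (x axis) against that from v6.5 (y axis) for the 13679 genes tested, 1 point a gene. Red points are the 1244 genes at least 2-fold above both controls, blue points the 1010 at least 2-fold below both, and dotted lines mark 2-fold; the named genes are circled.

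Among genes with at least 100 normalised reads on the high side, the 10 with the widest distance above both controls included genes of transcription, matrix and antigen presentation. Xlr3c, an X-linked gene of the lymphocyte-regulated family, had 135 reads in NZB against 1 in B6 and 0 in v6.5, a ratio of 209 (counting interval 36.9 to 8317). Fos, a subunit of the transcription factor AP-1, had 1086 normalised reads in NZB against 17.8 in B6 and 8.98 in v6.5. Tnn, the matrix protein tenascin-N, had 341.5 in NZB against 6.37 in B6 and 5.13 in v6.5. In each of these genes NZB lay far above 2 low controls.

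Nrbp2, a pseudokinase, had 884 normalised reads in NZB against 20.4 in B6 and 12.8 in v6.5. Scara5, a ferritin receptor, had 221, 5.10 and 3.85, and Aass, the first enzyme of lysine breakdown, had 299, 11.5 and 7.70, in the same order of libraries. Fosb, H2-Eb1, H2-Bl and Adamts19 (a secreted metalloprotease, with 221, 10.2 and 5.13) completed the 10. Of the 10, only Nrbp2 and H2-Eb1 passed on both sides. The others entered through NZB alone, which tied their direction to the read filter. Over the 10 genes NZB stood 19.8- to 59.3-fold above the nearer control, and the limma adjusted p was 0.115 or 0.116 for each. Just outside were genes named after their values were seen, S1pr1, the receptor that guides lymphocytes out of lymphoid organs, with 750.3 normalised reads in NZB against 37.0 in B6 and 25.7 in v6.5, and Pmel, a structural protein of melanosomes, with 2060, 109.6 and 71.9. Dct, another pigment gene, had 39 reads in NZB against 1 in B6 and 0 in v6.5. Olig3, a transcription factor of the neural tube, had 93 reads in NZB and 0 in either control, at least 48.0-fold higher against a floor of 3 reads over the controls. Dct and Olig3 also entered through NZB alone.

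On the other side, Hist1h3f, a histone H3 gene, had 3.96 normalised reads in NZB against 651 in B6 and 1273 in v6.5. Of the 50-base stretches of Hist1h3f, 49.3% are also found in other genes, so its reads are uncertain. Rnu11, a small nuclear RNA of the minor spliceosome, had 3 reads in NZB against 293 in B6 and 215 in v6.5, 109-fold lower (counting interval 37.2 to 532). Myo1f, an unconventional myosin of leukocytes, had 3 reads in NZB against 101 in B6 and 93 in v6.5, 41.8-fold lower (14.1 to 204). These 3 genes were close to absent from the NZB library. With poly(A) selection, the values of Hist1h3f and Rnu11 may depend on carry-over of RNA without a tail. The part of such carry-over was not tested.

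Spic, a transcription factor of the Ets family known from red pulp macrophages, had 4.95 normalised reads in NZB against 178 in B6 and 402 in v6.5. Fgf10, a growth factor of limb and lung outgrowth, had 8.91, 288 and 251, and Htr5a, a serotonin receptor, had 7.92, 278 and 227. Samd9l, a growth-restraining gene, had 7.92 in NZB against 260 in B6 and 199 in v6.5. Snora23, a guide RNA of ribosomal RNA modification, had 33.7 in NZB against 1473 and 949. It too is an RNA without a tail, and the part of carry-over in its values was not tested. The last members were 1110019D14Rik, with 1 read in NZB against 166 in B6 and 111 in v6.5 (179-fold lower, counting interval 31.8 to 7091), and BC052688, with 2, 238 and 82 reads (103-fold lower, 28.4 to 857). Over the 10 genes NZB stood 22.4- to 131-fold below the nearer control. Only Snora23 passed on both sides. The others entered through the controls alone, which tied their direction to the read filter.

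**Figure D2:**
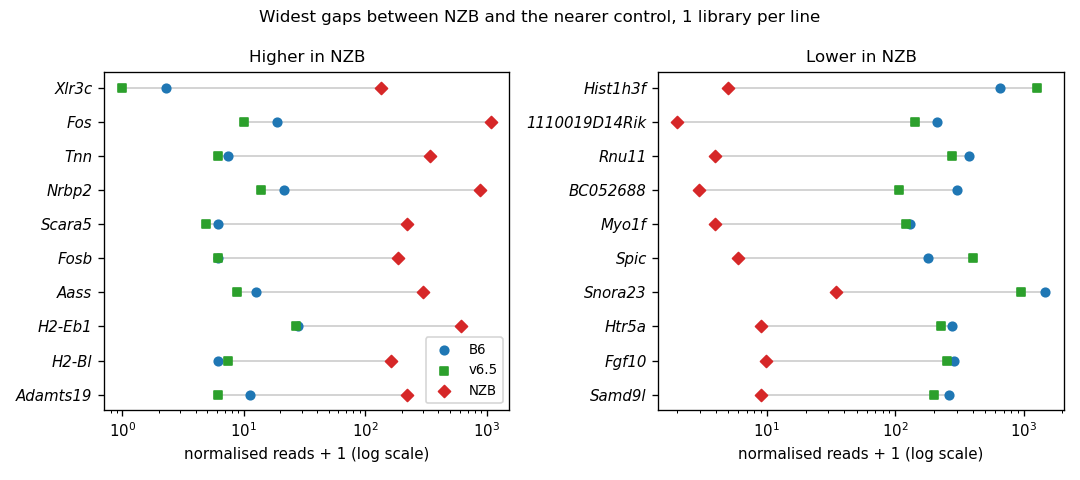
Normalised reads plus 1 on a log axis for the 10 genes furthest above both controls (left) and the 10 furthest below (right), 1 marker a library (NZB diamonds, B6 circles, v6.5 squares). In every row both controls lie on the same side of the NZB diamond, at least 19.8-fold away from it, although the controls themselves differ by over 2-fold in rows such as Spic. Apart from Nrbp2, H2-Eb1 and Snora23, the genes on the left entered through NZB alone and those on the right through the controls alone.

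Immediate-early genes, which the cell transcribes at once after a stimulus, were mostly higher in NZB. Of 15 tested (16 listed), 9 were at least 2-fold above both controls (60.0% of the list, beside 9.09% of all genes), 0 below both, and 14 were above both by any amount. Since 4 of the 15 (Fos, Fosb, Egr1 and Egr2) entered through NZB alone, the count on both sides was 5 of 11 (45.5%, beside 7.0%), with 0 lower. DESeq2 called 5 of them higher, beside 2.63% of all genes to which it gave an adjusted p, and Egr1 and Egr2 had none. Beside Fos (log2 difference 6.31, SE 0.59), Fosb, another AP-1 subunit, had 184 normalised reads in NZB against 5.10 in B6 and 5.13 in v6.5. Jun, the partner of both, had 919 in NZB against 118 in B6 and 32.1 in v6.5, and Junb 180, 42.0 and 34.6. All 4 AP-1 subunits of the list were thus highest in NZB, but for Fos and Fosb the read filter tied the direction. Jun and Junb passed on both sides, although for Jun the controls themselves lay 3.61-fold apart.

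Egr2, a zinc finger factor, had 40 reads in NZB against 2 in B6 and 2 in v6.5, and its relative Egr1 had 39, 4 and 3 reads. Atf3, a stress-induced factor, had 84.1 normalised reads in NZB against 16.6 in B6 and 20.5 in v6.5. Dusp1, a phosphatase that switches MAP kinases off, had 2126 normalised reads in NZB against 685 in B6 and 390.1 in v6.5, and Cyr61, a secreted matrix protein, 742, 256 and 74.4. The other members were nearer to the controls. Btg2, a cell division inhibitor, was the only member of the 15 that lay between B6 and v6.5.

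The promoters of Fos and Dusp1 are shown as examples with the letters TGACGT, the core of the cAMP response element, in the 250 bases before the transcription start. Of 12 tested immediate-early genes with a promoter in the table, 5 carry these letters (Fos, Egr2, Atf3, Dusp1 and Btg2), and the promoters of Fosb, Jun and Junb do not. The sequences come from RefSeq (build GRCm38.p6, a C57BL/6J genome), so the NZB alleles are not shown. Capitals mark TGACGT on either strand, and in Dusp1 also the palindrome TGACGTCA, which contains it.
Fos promoter, chr12:85473640-85473889, plus strand: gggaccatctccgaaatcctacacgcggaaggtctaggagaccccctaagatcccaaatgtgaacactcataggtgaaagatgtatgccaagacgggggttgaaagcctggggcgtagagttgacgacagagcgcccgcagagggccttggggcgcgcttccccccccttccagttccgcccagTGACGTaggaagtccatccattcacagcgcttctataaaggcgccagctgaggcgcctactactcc
Dusp1 promoter, chr17:26508473-26508722, minus strand: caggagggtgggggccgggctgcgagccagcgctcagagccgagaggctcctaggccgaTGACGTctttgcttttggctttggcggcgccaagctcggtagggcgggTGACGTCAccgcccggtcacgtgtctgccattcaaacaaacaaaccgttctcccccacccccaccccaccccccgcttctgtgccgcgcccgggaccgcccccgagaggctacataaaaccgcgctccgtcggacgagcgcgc
In Fos the match begins 66 bases before the start. In Dusp1 TGACGTCA ends 136 bases before the start and a second TGACGT ends 186 bases before it. Of 32851 promoters in the table, 6.47% hold TGACGT and 1.55% hold TGACGTCA in this window. The match describes these letters and shows no binding.

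**Figure D3:**
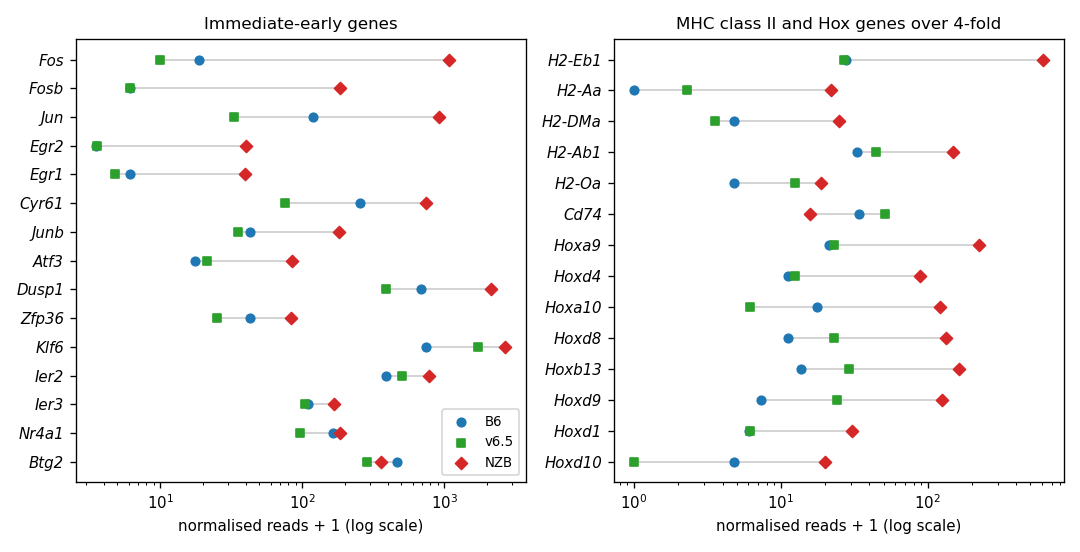
Normalised reads plus 1 on a log axis for the 15 immediate-early genes tested (left) and for the 6 MHC class II genes tested with the Hox genes at least 4-fold above both controls (right). Fos has 1086 normalised reads in NZB against 17.8 and 8.98, while Btg2 and Nr4a1 lie close to the controls.

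Other targets of the pathways that 2i medium acts on were mixed. Of 16 tested genes of ERK feedback, 4 stood above both controls (25.0%, beside 9.09% of all genes) and 1 below (6.25%, beside 7.38%). On both sides 2 of 13 were higher (15.4%, beside 7.0%) and 0 lower (beside 5.45%). Dusp4, a nuclear phosphatase of ERK, had 213 normalised reads in NZB against 12.7 in B6 and 21.8 in v6.5. Dusp6, a cytoplasmic relative, had 121, 148 and 118, and Etv4, an ERK-driven Ets factor, had 78.2, 113 and 232. Dusp6 thus lay between the controls and Etv4 under both. Among 12 Wnt targets, 2 were higher and 1 lower. Axin2, a feedback inhibitor of Wnt, had 1577 normalised reads in NZB against 787 in B6 and 316 in v6.5, and Sp5 had 176, 44.6 and 3.85. Tcf7l1, the repressor that Wnt signals relieve, was the lower one with 106, 549 and 299. Of 13 Nodal pathway genes 2 were higher and 0 lower. Lefty1, a Nodal inhibitor, had 1910 normalised reads in NZB against 399 in B6 and 675 in v6.5.

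Some genes of antigen presentation by MHC class II were higher in NZB than in both controls. Of 6 tested members (13 listed), 4 were at least 2-fold above both controls (66.7%, beside 9.09% of all genes) and 1 below (16.7%, beside 7.38%). H2-Aa and H2-DMa entered through NZB alone, so on both sides the count was 2 higher and 1 lower of 4 (beside 7.0% and 5.45%). Untested members such as H2-DMb1 (2 reads in NZB against 6 in B6 and 7 in v6.5) did not lie above the controls. H2-Eb1, the beta chain of the E molecule, had 611 normalised reads in NZB against 26.8 in B6 and 25.7 in v6.5 (log2 difference 4.49, SE 0.45). H2-Ab1, the beta chain of the A molecule, had 148 in NZB against 31.9 in B6 and 43.6 in v6.5. H2-Aa, its alpha chain, had 21 reads in NZB against 0 in B6 and 1 in v6.5, 32.5-fold higher (counting interval 5.23 to 1345). In all 3 genes NZB lay above both controls.

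H2-DMa, a chain of the molecule that loads peptides, had 24 reads in NZB against 3 in B6 and 2 in v6.5. Cd74, the invariant chain that chaperones class II molecules, went the other way, with 14.9 normalised reads in NZB against 33.1 in B6 and 50.0 in v6.5. The NOD libraries, which were outside the comparison, had 767 and 590 normalised reads of H2-Eb1. Of 8 leukocyte markers, 4 were tested and 0 stood apart in either direction. Their summed level was 516 normalised reads in NZB against 334 in B6 and 148 in v6.5, with 2, 0 and 1 of them at 0 reads. In a longer list of 13 leukocyte genes, 6 were tested, 0 were higher and 1 was lower (16.7%, beside 7.38% of all genes). Whether leukocyte RNA had a part in the class II values was not tested.

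The promoters of H2-Eb1 and H2-Aa are shown because class II genes share a module with an inverted CCAAT box near the start. Capitals mark CCAAT on either strand (read as ATTGG on the other) and, in H2-Aa, TGACGTCA.
H2-Eb1 promoter, chr17:34305617-34305866, plus strand: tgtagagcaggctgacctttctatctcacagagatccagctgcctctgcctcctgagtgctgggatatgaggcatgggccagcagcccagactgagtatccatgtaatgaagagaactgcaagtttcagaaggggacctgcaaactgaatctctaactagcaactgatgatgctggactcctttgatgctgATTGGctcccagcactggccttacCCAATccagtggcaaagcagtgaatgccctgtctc
H2-Aa promoter, chr17:34287824-34288073, minus strand: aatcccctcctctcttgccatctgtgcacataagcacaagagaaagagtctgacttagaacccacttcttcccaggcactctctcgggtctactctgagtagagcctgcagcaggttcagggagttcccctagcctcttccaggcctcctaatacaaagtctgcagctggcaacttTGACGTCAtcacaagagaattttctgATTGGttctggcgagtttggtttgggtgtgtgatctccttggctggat
CCAAT lies on the minus strand 59 to 55 bases before the start of H2-Eb1 and 48 to 44 before that of H2-Aa, and H2-Eb1 has a further one on the plus strand at 35. It is a frequent word, present in 33.8% of all promoters in this window. In H2-Aa, TGACGTCA begins 74 bases before the start.

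MHC class I genes were mixed. Of 16 tested, 4 were higher than both controls and 2 lower, and of the 12 that passed on both sides 1 was higher and 2 lower. H2-Bl had 161 normalised reads in NZB against 5.10 in B6 and 6.41 in v6.5, and H2-Q4 had 124, 17.8 and 10.3. Both H2-Bl and H2-Q4 entered through NZB alone. H2-M5, by contrast, had 116, 367 and 361. The classical chains H2-K1 and H2-D1 did not stand apart, at 128, 159 and 242.5 for H2-K1 and 93.0, 120 and 189 for H2-D1. Class I genes resemble each other, and 21.8% of the stretches of H2-Q4 occur in another gene. Of 11 tested genes of antigen processing, 1 stood above and 1 below. Pdia3, a disulfide isomerase of the peptide-loading complex, had 2368 in NZB against 8847 in B6 and 6091 in v6.5.

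Interferon-stimulated genes were split, with 5 of 33 tested above both controls (15.2%, beside 9.09% of all genes) and 6 below (18.2%, beside 7.38%). On both sides 3 of 27 were higher and 4 lower. The median log2 difference was -0.04 (0.47 without the rescaling). Ly6e, a membrane protein that limits virus entry, stood out with 4182 normalised reads in NZB against 357 in B6 and 416 in v6.5 (log2 difference 3.44, SE 0.27). Ifitm1 had 1023 in NZB against 415 in B6 and 477 in v6.5, while its neighbour in function Ifitm2 had 1104, 3141 and 2929. Eif2ak2, the kinase activated by double-stranded RNA, had 252, 599 and 534. The list holds members far apart in both directions.

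Some sensors of nucleic acid and bacterial products were much lower in NZB than in both controls. Aim2, the inflammasome sensor of cytosolic DNA, had 124 normalised reads in NZB against 1775 in B6 and 1003 in v6.5 (log2 difference -3.42, SE 0.42). Nod1, a sensor of bacterial cell wall fragments, had 17.8 in NZB against 928 in B6 and 361 in v6.5. Mb21d1, the enzyme cGAS that makes a second messenger on DNA, had 17.8, 104 and 100.1. All 3 were at least 5-fold lower than the nearer control on the scale used.

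Not all of Aim2, Nod1 and Mb21d1 are on the list of innate sensing, of which 15 genes were tested. Of the 15, 3 were lower than both controls (20.0%, beside 7.38% of all genes) and 2 higher (13.3%, beside 9.09%). Since 1 lower member entered through the controls alone, 2 of 14 were lower and 2 higher on both sides (14.3% each, beside 5.45% and 7.0%). The higher ones were Nod2, with 35.6 normalised reads in NZB against 7.64 in B6 and 11.6 in v6.5, and Tlr2, with 87.1, 34.4 and 35.9. Aim2 was the only tested gene of 12 in the Ifi200 cluster of chromosome 1. Ifi202b, a member known as a lupus candidate in NZB mice, had 4 reads in NZB against 3 in B6 and 2 in v6.5, and a difference was not detectable at this depth. Of the 13 Fc receptor and Slam genes of distal chromosome 1, 3 were tested, each of which entered through NZB alone, and untested members such as Cd244 (1 read in NZB against 5 in B6 and 3 in v6.5) did not lie above the controls. Fcgr3, an activating receptor for IgG, had 43 reads in NZB against 6 in B6 and 7 in v6.5.

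Cytokine genes were mixed, with 2 of 11 higher and 2 lower, or 1 and 2 of the 10 that passed on both sides. Kitl, the ligand of the receptor Kit, had 199 normalised reads in NZB against 26.8 in B6 and 35.9 in v6.5. Laptm5, a lysosomal protein of blood cells and not one of these 11, had 38.6 in NZB against 794 in B6 and 201 in v6.5.

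The core of the pluripotency network was present in all 3 libraries. Pou5f1 had 5349 normalised reads in NZB against 3213 in B6 and 3951 in v6.5, and Sox2 had 5603, 7494 and 5771. Nanog had 3590 in NZB against 7471 in B6 and 8647 in v6.5, which put it 2.08-fold below the nearer control (log2 difference -1.16, SE 0.24, limma adjusted p = 0.129). Of 27 naive factors, 23 stayed within 2-fold of at least 1 control.

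Dppa3, a factor of the egg and the naive state, was the only naive gene at least 2-fold above both controls, with 223 normalised reads in NZB against 28.0 in B6 and 30.8 in v6.5. Klf5 had 630 in NZB against 2074 in B6 and 1435 in v6.5. Dppa2, which opens chromatin of early embryonic genes, had 178, 568 and 595, and Tet2, which oxidises methylated cytosine, 3579, 7327 and 7542. Nanog and these 3 genes were lower than in either control. Lef1, one of the genes of the formative state, had 599 in NZB against 544 in B6 and 26.9 in v6.5, so the controls differed more than NZB from B6.

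Several trophoblast genes were lower in NZB than in both controls. Of 11 tested, 5 were at least 2-fold below both controls (45.5%, beside 7.38% of all genes) and 1 above (9.09%). On both sides the counts were 4 lower and 1 higher of 10. Eomes, a T-box factor of trophoblast stem cells and of mesendoderm, had 74.2 normalised reads in NZB against 442 in B6 and 404 in v6.5. Krt19 had 16.8, 68.8 and 124, and Tfap2a 25.7, 62.4 and 112. Gata2 was the exception, with 383 in NZB against 61.2 in B6 and 21.8 in v6.5. In each of these genes the controls lay on 1 side of NZB.

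Primitive endoderm genes had few members apart, with 2 of 12 higher and 1 lower, or 1 and 1 of 10 on both sides. Lama1, a laminin chain of the first basement membrane, had 3627 normalised reads in NZB against 1529 in B6 and 1024 in v6.5. Sparc, a matrix glycoprotein, had 1520, 7869 and 4968. In the neural list, Nes, an intermediate filament of progenitors, had 1420 in NZB against 270 in B6 and 665 in v6.5, and Tubb3, a neuronal tubulin, had 37.6, 120 and 364.

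Mesenchymal genes separated v6.5 from the other libraries more than NZB from both controls. Over 36 tested genes the median log2 difference of NZB was -0.19 from B6 and 2.17 from v6.5, and 18 lay between the controls. Col1a1, the main fibrillar collagen, had 3779 normalised reads in NZB against 1691 in B6 and 153 in v6.5. Ctgf, a matrix-linked growth factor, had 1933, 833 and 340. The 10 fibroblast markers summed to 6755 normalised reads in NZB against 4499 in B6 and 579 in v6.5, with 1, 0 and 3 of them at 0 reads. Their part in the values of this list was not tested, and fewer cells of a type cannot be told apart from less RNA per cell.

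Hox genes, which pattern the body axis and are held silent by Polycomb in ES cells, were often higher in NZB than in both controls. Of 26 tested (39 in the table), 14 were at least 2-fold above both controls and 0 below, but 12 of the 26 entered through NZB alone. Among the 14 that passed on both sides, 5 were higher (35.7%, beside 7.0%) and 0 lower. DESeq2 called 4 of the 26 higher, beside 2.63% of all genes to which it gave an adjusted p. Hoxa9 had 221 normalised reads in NZB against 20.4 in B6 and 21.8 in v6.5. Hoxb13 had 161, 12.7 and 28.2, Hoxd8 133, 10.2 and 21.8, and Hoxa10, which entered through NZB alone, 120, 16.6 and 5.13. Members of the A, B, C and D clusters were among the 14, and their controls stayed under 30 normalised reads. Rybp, a subunit of Polycomb complex 1 and named after its values were seen, had 246 in NZB against 2091 in B6 and 2124 in v6.5.

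Of 41 tested imprinted genes, which are read from 1 parental copy, 6 were higher (14.6%, beside 9.09% of all genes) and 3 lower (7.32%, beside 7.38%). On both sides 5 of 37 were higher (13.5%, beside 7.0%) and 1 lower (2.70%, beside 5.45%). Rian and Meg3, maternally expressed RNAs of the Dlk1 region, had 1781 and 1350 normalised reads in NZB, against 547 and 466 in B6 and 590 and 271 in v6.5. Igf2r, the receptor that clears the growth factor Igf2, had 6621, 2553 and 1884. Nnat, a paternally expressed gene that entered through the controls alone, had 5.94, 61.2 and 64.2. Germline genes kept silent by DNA methylation split into 4 higher and 4 lower of 27, or 3 and 3 of 22 on both sides. Fkbp6 had 386 in NZB against 28.0 in B6 and 68.0 in v6.5, whereas Tdrd12, of the piRNA pathway, had 101, 498 and 642, and Sycp1, of the synaptonemal complex, 4.95, 104 and 47.5. Of these, Sycp1 entered through the controls alone.

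The Xlr family of the X chromosome had few or no reads in B6 and v6.5. Of 9 listed members 4 were tested, and each entered through NZB alone, so only values are given. Xlr4a had 28 reads in NZB and 0 in each control, at least 14.5-fold higher against the floor of 3 reads. Xlr3a had 104 normalised reads in NZB against 0 in B6 and 6.41 in v6.5. The NOD libraries had 290.4 and 117 normalised reads of Xlr3a and 205 and 133 of Xlr3c, so the reads were not particular to NZB. The copies resemble each other, since 44.8% to 77.7% of their 50-base stretches are also found in other genes, so the reads may be split among them.

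The tested Y-linked genes were read in all 3 libraries. Of these 5, 4 were at least 2-fold above both controls (beside 9.09% of all genes), and 2 of the 3 that passed on both sides (beside 7.0%). Eif2s3y, a translation factor subunit, had 172 normalised reads in NZB against 8.92 in B6 and 24.4 in v6.5, and Ddx3y, an RNA helicase, had 232, 66.3 and 50.0. Uty, a histone demethylase, did not stand apart, with 97.0, 94.3 and 30.8. Kdm5d had 4 reads in NZB against 0 in B6 and 1 in v6.5 and was not tested. Xist, the RNA that coats an inactive X, had 9 reads in NZB against 54 in B6 and 11 in v6.5.

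Some genes that stood apart lay side by side. Taking the tested genes in order along each chromosome (mm9), 11 runs of at least 4 neighbours were all higher in NZB and 6 were all lower. The higher runs count genes that entered through NZB alone, such as H2-Aa, Xlr4a, Prnd and Mir292. For these the read filter tied the direction. The largest held 6 genes of the Hoxd cluster on chromosome 2 (74520380 to 74586328). Another held Tap2, a peptide transporter, with H2-Ab1, H2-Aa and H2-Eb1 on chromosome 17 (34341424 to 34453619). One run on chromosome 2 (131645742 to 131855724) held the prion gene Prnp with Prnd and Prn, but the annotation Prn begins at the base where Prnp begins and covers Prnd, so these entries share sequence and are not separate neighbours. Prnp had 461 normalised reads in NZB against 121 in B6 and 61.6 in v6.5. Among the lower runs were 4 keratin genes on chromosome 11 (100002126 to 100131185), of which Krt42 had 19.8, 104 and 310.5.

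A run on chromosome 7 (3218785 to 3221016) held the primary transcript of the miR-290 cluster, the main miRNA family of mouse ES cells. Of its 7 tested hairpins, 5 were at least 2-fold above both controls (beside 9.09% of all genes). Mir291a, Mir292 and Mir295 entered through NZB alone and Mir294 through the controls alone, so the read filter tied their direction. Mir292 had 128 reads in NZB against 10 in B6 and 5 in v6.5, and Mir291b had 209, 25 and 28. Mir291a had 41, 3 and 0 reads, a ratio of 21.2 (counting interval 6.75 to 107). Mir295 had 53, 7 and 1, while Mir294 had 7, 22 and 8 and Mir290a 54, 62 and 27. The host transcript D7Ertd143e had 3679 normalised reads in NZB against 1561 in B6 and 1231 in v6.5. It overlaps most of the hairpins, so the entries of this run are not separate neighbours. These libraries select poly(A) RNA, so the values describe the precursor and not the mature miRNAs. The mature 3p strands are shown, from RefSeq (GRCm38.p6), with the seed (bases 2 to 8) in capitals, because the seed groups them.
mmu-miR-290a-3p: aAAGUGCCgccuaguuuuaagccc
mmu-miR-291a-3p: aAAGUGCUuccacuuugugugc
mmu-miR-291b-3p: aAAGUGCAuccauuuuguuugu
mmu-miR-293-3p: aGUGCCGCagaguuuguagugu
mmu-miR-294-3p: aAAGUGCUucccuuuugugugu
mmu-miR-295-3p: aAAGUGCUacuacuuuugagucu
The seed AAGUGCU is shared by 3 of the 6, miR-291a-3p, miR-294-3p and miR-295-3p. Hairpins of that group were both higher (Mir291a, Mir295) and not higher (Mir294) in NZB.

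Ribosomal protein genes leaned to higher values in NZB, with 27 of 81 tested at least 2-fold above both controls (33.3%) and 6 below (7.41%). Over all genes these shares were 9.09% and 7.38%. The median log2 difference of the list was 0.69. Of the 74 that passed on both sides, 26 were higher (35.1%, beside 7.0%) and 5 lower (6.76%, beside 5.45%). Rpl37 had 1146 normalised reads in NZB against 70.1 in B6 and 78.3 in v6.5, and Rpl13 had 2476, 324 and 566. Rpl26 was opposite, with 37.6, 812 and 1361, and Gm15772, at the same place, had identical values. Processed copies are common in this family, and 14.2% of the 50-base stretches of Rpl37 and 22.7% of those of Rpl26 occur in another gene, so the levels are uncertain. The direction of the list median was the same against each control, 0.91 from B6 and 0.46 from v6.5.

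Replication-dependent histone genes, whose messages normally end without a poly(A) tail, leaned the other way. Of 58 tested, 20 were lower than both controls (34.5%, beside 7.38% of all genes) and 3 higher (5.17%, beside 9.09%). Of the 50 that passed on both sides, 13 were lower (26%, beside 5.45%) and 3 higher (6%, beside 7.0%). Hist1h4d, a histone H4 gene, had 1899 normalised reads in NZB against 5314 in B6 and 8186 in v6.5, and Hist1h1d, a linker histone, had 1225, 3739.5 and 4017. Hist1h2bn was higher, with 180, 37.0 and 37.2, but 86.4% of its stretches occur in other genes, so its reads are uncertain. All histone genes together took 0.326% of the reads in NZB (95% Wilson interval 0.323% to 0.330%), 0.277% in B6 (0.274% to 0.280%) and 0.618% in v6.5 (0.613% to 0.623%). Poly(A) selection leaves differing amounts of such RNA behind, and its part in these values was not tested. Small nucleolar RNAs, also without a tail, gave 15 of 74 higher and 10 lower, or 6 and 6 of 51 on both sides.

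Genes of detoxification and metabolism held a few wide differences. Of 30 glutathione and metallothionein genes, 6 were higher (20.0%, beside 9.09% of all genes) and 2 lower (6.67%, beside 7.38%). On both sides the counts were 6 and 2 of 28. Mt1 and Mt2, metal-binding proteins, had 5476 and 2932 normalised reads in NZB, 1758 and 589 in B6, and 604 and 186 in v6.5. Nnt, a mitochondrial enzyme that supplies NADPH and that is partly deleted in some C57BL/6 substrains, had 1400 in NZB against 385 in B6 and 535 in v6.5. Gstm1 had 855, 262 and 194. Hspa8, the main constitutive chaperone of the heat shock family, had 634.5 in NZB against 9617 in B6 and 8302 in v6.5 (log2 difference -3.81, SE 0.24), and 38.6% of its stretches occur elsewhere. It was the only one of 11 tested heat shock genes that stood apart.

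Of the remaining programs, several showed few or no members apart, whereas KRAB zinc finger genes leaned to lower values. Of 17 tested genes of cholesterol synthesis and of 11 endoplasmic reticulum chaperones, 0 stood apart in either direction. Among 21 p53 targets and cell-cycle inhibitors, 1 stood apart, and among 12 genes of the DNA methylation machinery 2 did, both lower. Of 87 genes of the respiratory chain, 8 were higher (9.20%) and 3 lower (3.45%). Of 17 crystallins 5 were tested, 3 of them through NZB alone. Crygd, a lens protein among these 3, had 83.1 normalised reads in NZB against 2.55 in B6 and 5.13 in v6.5. KRAB zinc finger genes of chromosomes 4 and 13 gave 7 of 21 lower (33.3%, beside 7.38% of all genes) and 2 higher (9.52%, beside 9.09%). Of 8 tested genes of complement and Fc receptors, 3 entered through NZB alone, and of the other 5, 0 were higher and 1 lower.

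**Figure D4:**
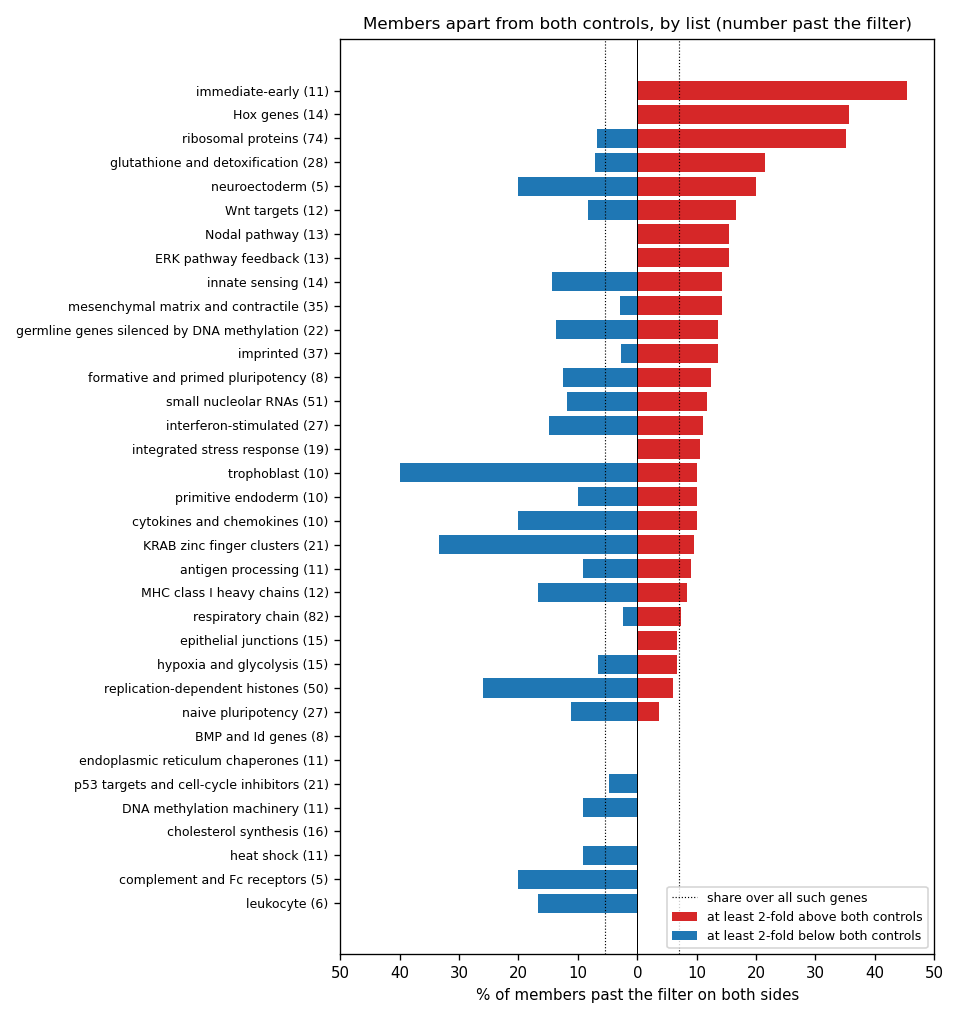
Share of the members of each list that stood at least 2-fold above both controls (red, to the right) or below both (blue, to the left), counted over members that passed the read filter in NZB and in a control, for lists with 5 or more of them (number in brackets). Dotted lines mark the shares over all such genes, 7.0% and 5.45%; immediate-early, Hox and ribosomal protein genes reach furthest to the right, trophoblast, KRAB zinc finger and histone genes to the left.

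By chromosome, the median log2 difference of NZB from the 2 controls together lay between -0.31 and 0.16 for the autosomes and the X. Chromosome 6 was lowest, at -0.19 from B6 and -0.39 from v6.5 over 654 genes. Its pooled median of -0.31 became 0.21 without the rescaling, against 0.57 over all genes. It had 79 genes below both controls (12.1%, beside 7.38% of all genes) and 43 above (6.57%, beside 9.09%). Nanog, Nod1, Samd9l and Rybp, lower in NZB, lie on it, and so do Aass, Gata2, Dppa3, Hoxa9 and Hoxa10, which were higher. On chromosome 19, 39 of 459 genes were above both controls and 12 below. Chromosome 8 differed between the controls, since v6.5 was 0.58 above B6 at the median, and NZB was 0.37 above B6 and 0.20 below v6.5 there. The counts of genes apart on chromosome 8, 62 higher and 48 lower of 741, were near the background.

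**Figure D5:**
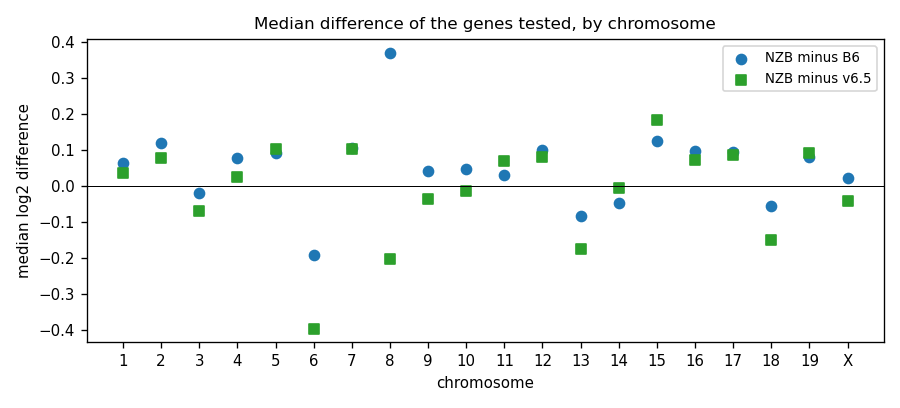
Median log2 difference of NZB from B6 (circles) and from v6.5 (squares) over the genes tested on each autosome and the X chromosome. Both controls give a negative median on chromosome 6, while on chromosome 8 they give opposite signs.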

How the data were processed

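RNA of 3 ES cell libraries, 1 each of NZB, B6 and the line labelled v6.5, was analysed. According to the labels and the study's methods, the authors aligned stranded, poly(A)-selected 50-base reads to mm9 with STAR (version 2.2.0c in the labels, another in the study's methods), counted them over RefSeq exons with HOMER and tested with edgeR. The deposited signal values are read counts rescaled by the authors to equal library totals. In each library 100% of the values below 3000 lay within 0.05 of a whole read, so reads were recovered. Columns of the authors' own comparisons (log fold change, p-value and FDR) were not used. The table held 24016 genes, and 27 symbols turned into dates are not named. 

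Values were divided by TMM factors (B6 0.709, v6.5 1.10, NZB 1.28). Genes passing filterByExpr on recovered reads (13679) were tested by limma-trend on log2(value + 1), with 1 residual degree of freedom from B6 and v6.5 and the assumption that NZB varies like them. Log2 differences on this scale understate changes of low genes. Adjusted p is the Benjamini-Hochberg value. Because the values were rescaled counts, edgeR and DESeq2 on recovered reads were alternatives. The p-values measure only the spread between these libraries. The tools were limma 3.58.1, edgeR 4.0.16 and DESeq2 1.42.0 under R 4.3.3, and the test was tested on simulated data.

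Members and lists were chosen with earlier results of these data known. The planned rule named the 10 largest called changes in each direction, up to 6 called members of each list, the 5 most abundant called genes in each direction, and 12 fixed genes. As no gene was called, the first parts named none, and a rule chosen after values were seen replaced them: the 10 genes in each direction furthest beyond both controls with at least 100 normalised reads on the high side, and examples from the lists. Ratios of low counts are pooled over the controls with exact 95% intervals, which cover counting error only, as do shares. Stretches of 50 bases were compared between genes on GENCODE vM21 transcripts. Lists were described by counts and medians, without a set test.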

Additional observations from a re-analysis of the deposited data

How the results depend on the processing

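No paired analysis was possible because NZB, B6 and v6.5 have 1 library each, which carry no shared replicate numbers beyond 1. With limma, 0 genes were called higher or lower under the planned setting, and also with edgeR, with DESeq2 size factors, with pseudocounts of 0.5 or 5, with TMM computed without RNAs lacking a tail, with a filter of 1 unit in any library, and without B6 or without v6.5, where the spread came from the NOD pair. Calls appeared on the deposited totals without TMM (162 higher, 50 lower), with no filter (776 and 273), with DESeq2 (318 and 421), with robust moderation (14 and 43) and with 5 libraries in 3 means (5 and 7). The cause of these differences was not tested. The genes at least 2-fold beyond both controls, 1244 higher and 1010 lower, became 2325 and 451 without TMM, and the lower ones 2004 without a filter and with the filter of 1 unit in any library. In alternatives added after seeing the data, they became 691 and 527 among genes that share no 50-base stretch with another gene, where fewer genes are counted, 870 and 706 among genes with at least 50 normalised reads, and 867 and 674 among genes that passed the read filter in NZB and in a control. Against 1 control alone the count was 1947 to 2013 higher and 1602 to 1609 lower. Without TMM the median of all genes moved by 0.53 (log2), and 12 of 44 list medians changed sign. Of 124 named genes tested, 119 kept their direction in every alternative. Without TMM Sox2 turned to 0.30, Rmrp to 0.31, Btg2 to 0.52 and Dusp6 to 0.40. Btg2 was also 0.0096 with DESeq2 size factors and 0.34 without B6, where Dusp6 was 0.033. Mir290a turned to -0.088 with edgeR, -0.13 with DESeq2 and -0.56 without v6.5. Depth limits low genes such as Ifi202b and Kdm5d, and 1 library a line allows no estimate of the spread within a strain.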
